A study of Mus musculus with 43 samples.

Results

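Liver transcripts of wild type (WT) mice kept under dietary restriction (DR) were compared with those of WT mice fed ad libitum (AL). FPKM are fragments scaled by transcript length and by library size, here with geometric normalization across samples. Members of the comparison are all gene entries of the liver table with a valid quantification and an FPKM of at least 1 in either group. By this rule 13864 of 42349 entries were members. For 325 members 1 group was listed at 0, and the remaining 13539 were tested. An entry is a gene or, in 610 of the tested entries, several overlapping genes joined.

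The WT AL group holds 2 liver libraries and the WT DR group 3, all from female mice of 15 months. DR mice received 30% less food than AL mice for 12 months, in 1 meal a day late in the light phase, whereas AL mice had chow at all times. A second pair of groups, KO AL and KO DR with 3 libraries each, carries a global deletion of Irs1, which encodes insulin receptor substrate 1, and was used as a diet contrast that shares no library with the WT contrast. Skeletal muscle, brain and white adipose tissue of WT mice on the same diets served for comparison between tissues. All groups are whole tissue, so fewer cells of a type and less RNA per cell cannot be told apart.

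The liver is the organ in which long-term food restriction meets hormone signals from insulin, growth hormone and glucocorticoids. Between meals it releases glucose and ketone bodies and burns fatty acids, and after a meal it stores glycogen and makes fatty acids and sterols. It also secretes most plasma proteins and clears drugs and steroids through cytochrome P450 enzymes, many of which follow the sex-specific pattern of growth hormone release. A single daily meal gives these programmes a fixed daily timing, and the time of day at which tissue was collected is not given in the sources used here.

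The deposited table holds 1 FPKM value per group with a 95% interval, and no value per library. The distance from the FPKM to its upper bound was read as 2 SD, and the SD was 44.1% of FPKM for the median tested entry in WT AL and 32.8% in WT DR. The depth of each library is unknown from these files. Irs1 stood at 4.70 FPKM (95% interval 1.96 to 7.45) in WT AL, 3.29 in WT DR, 5.95 in the group labelled KO AL and 4.75 in the group labelled KO DR, so the summed gene value was not lower under the KO labels. The table does not show which exons those reads covered, and directions in the KO groups rest on their labels. All 12 hepatocyte markers were tested and higher in WT DR than in WT AL, with a summed level of 44074 FPKM in WT AL, 110618 in WT DR, 93944 in KO AL and 106798 in KO DR. Albumin (Alb) alone went from 17208 FPKM (0 to 51377) to 56555 (0 to 114365), and the WT AL interval lies within that of WT DR. A single ribosomal RNA entry, n-R5-8s1, took 22.0% of all FPKM in WT AL, 0.841% in WT DR, 9.04% in KO AL and 10.1% in KO DR, and transcripts of the mitochondrial chromosome took 9.89%, 19.7%, 19.3% and 16.8%. The part of these differences in the results below was not tested.

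Between WT DR and WT AL, 32 entries of 13539 passed a false discovery rate (FDR) of 10%, 13 of them higher in DR and 19 lower. The test was a two-sided Wald test on the log2 ratio, with the error taken from the deposited intervals and Benjamini-Hochberg adjustment. Its normal reference is an approximation for groups of 2 and 3 libraries, and without values per library no exact test could replace it, so single p-values are not printed and each entry is given by its SE and by whether it passed. The calls are 0.236% of the entries tested (0.096% higher and 0.14% lower). An unadjusted p under 0.05 was found for 394 entries, or 2.91%. That is below the share of 0.05 that this threshold gives without any difference. The intervals of 28 of the 32 did not overlap, as those of 65 entries in all (0.48%). The median log2 difference over all entries was 0.03, with a median standard error (SE) of 0.81. Short loci dominated the calls: 20 of the 32 (62.5%) span less than 300 bp, against 1.4% of the entries tested. With a t distribution of 3 degrees of freedom in place of the normal reference, the same Wald statistic called 0 entries.

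**Figure D1:**
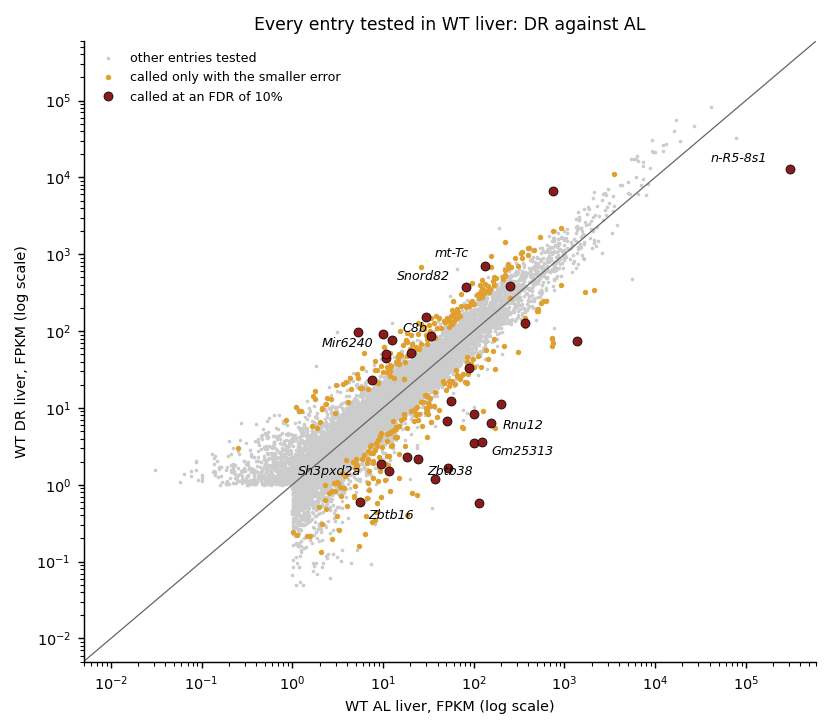
FPKM of each tested entry in WT AL (x axis) and WT DR (y axis) liver, both on log10 axes, with 1 point per entry; dark red marks the 32 entries called at an FDR of 10% and orange those called only with the smaller error defined further on. Most points follow the diagonal line of equal values, and among the called entries C8b lies above it and Zbtb16, Zbtb38 and Sh3pxd2a lie below it.

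Of the 32 calls, 5 were single protein-coding genes, against 9937 of the 13539 entries tested. C8b (chr4:104766317-104804548, GRCm38), the beta subunit of complement component 8, had 12.5 FPKM (3.41 to 21.6) in WT AL and 77.2 (35.0 to 119) in WT DR. C8b rose by 2.63 ± 0.66 (log2, SE), or 6.17-fold. It was the only protein-coding gene called higher among entries of a single gene. Zbtb16 (chr9:48654311-48835945), a zinc finger transcriptional repressor, had 5.51 FPKM (1.4 to 9.62) in WT AL and 0.591 (0.266 to 0.916) in WT DR. Zbtb16 fell by 3.22 ± 0.67, a 9.33-fold lower level.

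Zbtb38 (chr9:96682770-96752831), a zinc finger protein that binds methylated DNA, had 24.5 FPKM (4.79 to 44.2) in WT AL and 2.16 (0.678 to 3.65) in WT DR. Zbtb38 fell by 3.5 ± 0.76. Sh3pxd2a (chr19:47260174-47464411), a scaffold protein of podosomes, went from 9.48 FPKM (4.04 to 14.9) to 1.84 (1.52 to 2.16), and it fell by 2.36 ± 0.43. The histone H4 gene Hist1h4i (chr13:22040636-22041362) went from 11.7 FPKM (1.34 to 22.1) to 1.51 (1.48 to 1.53) and fell by 2.96 ± 0.64. Copies of histone H4 are nearly identical in their coding part and lack poly(A) tails in most cells. The WT DR interval is also far narrower than that of WT AL, so this entry's value and its call are uncertain.

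The other calls were mostly small noncoding RNAs, which poly(A)-selected libraries sample poorly, together with pseudogenes, joined entries and 1 immunoglobulin segment. The 5.8S ribosomal RNA entry n-R5-8s1 fell from 303919 FPKM (0 to 728751) to 12826 (3858 to 21795), a log2 difference of -4.57 ± 1.13. The spliceosomal RNA Rnu12 went from 157 to 6.28 FPKM and the vault RNA Vaultrc5 from 50.2 to 6.70 FPKM, both lower in DR. The mitochondrial tRNA entries moved the other way. mt-Tc stood at 134 FPKM in WT AL and 704 in WT DR, mt-Tf at 254 and 382, and the joined entry of mt-Tl2 and mt-Ts2 at 741 and 6726. The snoRNA Snord82 rose from 81.4 to 372 FPKM in WT mice, while in the KO groups it stood at 1312 FPKM under AL and 327 under DR. The entry of the kappa chain segment Igkv3-2 fell from 101 to 3.49 FPKM.

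Further short RNA calls were mostly lower in DR. The small nuclear RNA entries Gm25360, Gm25313, Gm23444 and Gm24305 fell from 115, 124.5, 37.0 and 18.5 FPKM to 0.579, 3.56, 1.19 and 2.31. The ribosomal RNA entry Gm24601 fell from 1368 to 73.9 FPKM. Among snoRNAs, Snord91a fell from 199 to 11.2 FPKM, while Gm23455 rose from 20.4 to 52.3 and Gm24455 from 7.59 to 23.3. Of the processed pseudogenes, Gm11966, Gm15067 and Gm14039 rose from 29.95, 5.27 and 33.7 FPKM to 150.3, 97.2 and 86.4, and Gm13798 fell from 56.9 to 12.1. The unprocessed pseudogene Mup-ps5 fell from 88.6 to 33.2 FPKM, and RP23-396I19.1, with no annotated type here, rose from 10.0 to 90.7. Pseudogenes share reads with their parent genes, so these values are uncertain. In the joined entries it is unknown which gene the reads came from. Mir8098 with Wdfy2 fell from 51.9 to 1.67 FPKM, Gm24067 with Ppan from 372 to 128, and 9430008C03Rik with Gm23925, Gm26003 and RP23-132A3.5 from 101 to 8.30, while Hipk3 with Mir1902 rose from 10.8 to 44.3.

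Mir6240 (chr5:114851948-114852064) was the call in a single microRNA entry, with intervals of 7.25 to 14.5 around 10.9 FPKM in WT AL and 45.6 to 54.6 around 50.1 in WT DR. It rose by 2.21 ± 0.25. In the KO groups its level was 10.7 FPKM (8.74 to 12.7) under AL and 32.1 (0 to 106) under DR, a difference that passed with neither error. The reads come from poly(A)-selected RNA and the entry covers the precursor locus of 117 bases, so the mature microRNA was not measured as such. Its annotated mature sequence (RefSeq) is printed because a microRNA acts through it, with the seed, bases 2 to 8, in capitals:
Mir6240: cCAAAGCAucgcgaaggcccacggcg

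The sources do not say whether the deposited interval belongs to the mean of a group or to a single library. If it belongs to a library, the error of the mean is smaller by the square root of the number of libraries. With that smaller error 387 entries passed the FDR of 10% (2.86%), 185 higher in DR (1.37% of those tested) and 202 lower (1.49%), and all 32 calls above were among them. Of the 387, 230 were single protein-coding genes, 97 higher and 133 lower, against 9937 of the 13539 entries tested. In what follows "rose" and "fell" are used with the words "smaller error" for entries that passed only in this way.

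Genes of the cytosolic ribosome were higher in WT DR than in WT AL almost throughout. Of 69 ribosomal protein entries tested, 64 were above 0 and 5 below, with a median log2 difference of 1.03 against 0.03 over all entries. None passed with the full interval, and 18 rose and 0 fell with the smaller error, against 1.37% and 1.49% of all entries. Rps16 stood at 125 FPKM (52.6 to 197) in WT AL and 466 (215 to 716) in WT DR, intervals that do not overlap, a log2 difference of 1.90 ± 0.57 that passed with the smaller error. Rps15 went from 286 (126 to 445) to 901 (384 to 1418) FPKM and Fau, which encodes a ubiquitin-like protein fused to Rps30, from 135 (58.6 to 211) to 407 (193 to 621), and both rose with the smaller error. Abundant members were not uniform, since Rpl41 stood at 1508 and 2174 FPKM and Rps9 at 993 and 840, and neither passed with either error. Rpl14, at 628 and 360 FPKM, had the lowest difference of the group, -0.80 ± 0.68.

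Vertebrate ribosomal protein mRNAs begin with a run of pyrimidines, through which translation follows nutrient signals. A run of at least 8 C or T over the annotated RefSeq start was found in 13 of 50 ribosomal protein genes with a promoter in the table, against 3.81% of 27025 promoters. The 4 genes holding such a run with the smallest p are shown as 30 bases around the start (15 before and 15 from the start on, GRCm38.p6), with the run in capitals:
Fau (chr19:6057932-6057961, plus strand): tgcgcgcccccaCTTCTTCCTCTTTCTTga
Rps24 (chr14:24490663-24490692, plus strand): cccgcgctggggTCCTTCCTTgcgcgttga
Rpl38 (chr11:114668565-114668594, plus strand): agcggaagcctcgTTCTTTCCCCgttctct
Rps6 (chr4:86857353-86857382, minus strand): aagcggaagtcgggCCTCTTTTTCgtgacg
All 4 rose with the smaller error, but they were picked by p, so this carries no information on the run. Whether genes with a run differed from the other ribosomal protein genes was not tested. Rpl38 went from 20.4 to 88.8 FPKM, Rps24 from 111 to 306 and Rps6 from 152 to 352. Rps9 and Rpl14, with log2 differences of -0.24 and -0.80, hold such a run too.

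Respiratory chain subunits encoded in the nucleus followed the same direction. Of 74 tested, 64 were above 0, with a median log2 difference of 0.54, and 5 rose and 0 fell with the smaller error, against 1.37% of all entries higher and 1.49% lower. Ndufa2, an accessory subunit of complex I, stood at 123 FPKM (49.6 to 197) in WT AL and 344 (162 to 527) in WT DR, a log2 difference of 1.48 ± 0.58 that passed with the smaller error. Ndufa4 went from 223 to 517 FPKM, and Sdhb, the iron-sulphur subunit of complex II, from 62.7 to 151. All 6 mitochondrially encoded entries tested were above 0 with a median of 1.25, and none passed with either error; mt-Co2 had the largest difference, with levels of 6092 FPKM (789 to 11395) and 17367 (2446 to 32288). Proteasome subunits had a median of 0.43 over 35 entries, and mitochondrial ribosomal proteins one of 0.17 over 72 with 0 called either way. The WT AL group was the lowest of the 4 liver groups in 63 of the 69 cytosolic ribosomal protein entries, in 61 of the 74 respiratory chain entries, in all 6 mitochondrially encoded entries and in all 12 hepatocyte markers, against 36.3% of all entries tested.

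**Figure D2:**
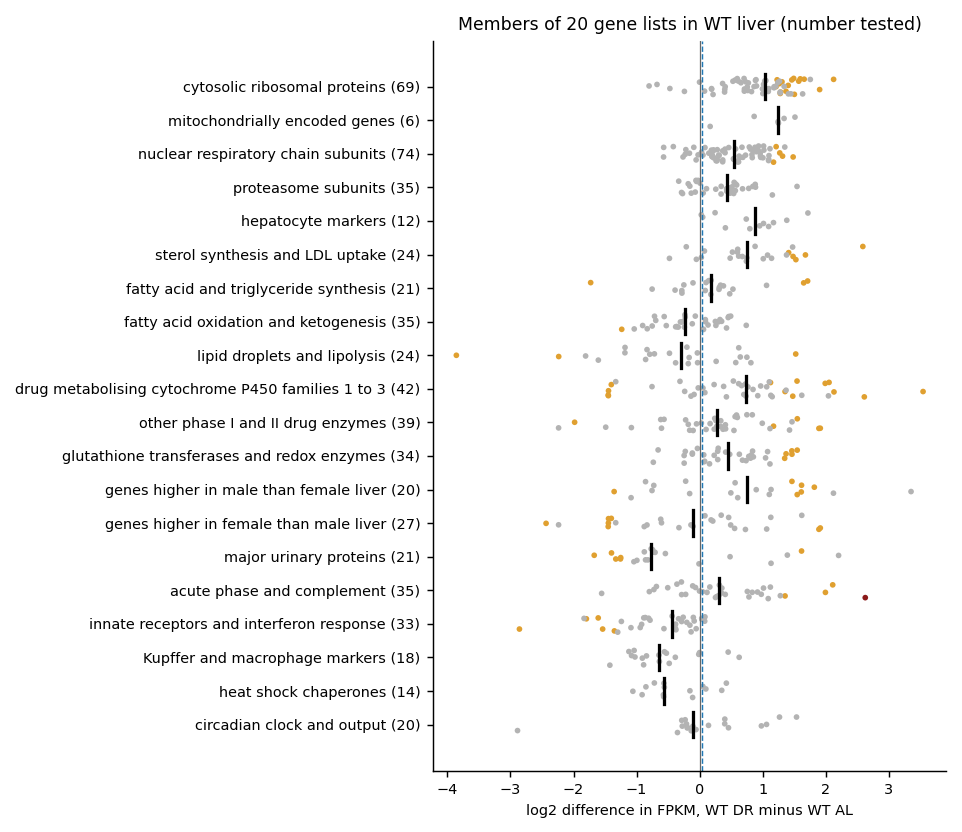
Distribution of log2(WT DR/WT AL) in liver over the tested members of gene lists named by role (y axis), with 1 point per entry, the median of each list as a black bar and that of all entries as a dashed line; dark red marks a call at an FDR of 10% and orange a call with the smaller error only. Cytosolic ribosomal proteins (median 1.03) lie to the right of 0 and innate receptors and interferon response genes (median -0.44) to the left.

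Ribosomal protein and respiratory chain mRNAs are short, and length itself moved with the difference. Median transcript length was 628.25 nt for ribosomal protein genes and 608 nt for respiratory chain genes, against 1087 nt over all entries with a length (12312, or 90.9% of those tested). Split by length into 5 classes of equal size and without ribosomal protein genes, the shortest entries (57 to 653 nt) had a median log2 difference of 0.295 and the longest (2339 to 123179 nt) one of -0.159. The classes between them had medians of 0.0323, 0.0679 and -0.0150. In the KO groups the medians of the shortest and longest classes were 0.0911 and -0.0766. In WT mice they were 0.253 and -0.246 in muscle, -0.0305 and -0.0736 in brain and -0.0817 and -0.272 in white adipose tissue. Of the ribosomal protein genes 39 lay in the shortest class, and 39 respiratory chain genes did as well. The part of length in the ribosomal protein difference was not tested.

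**Figure D3:**
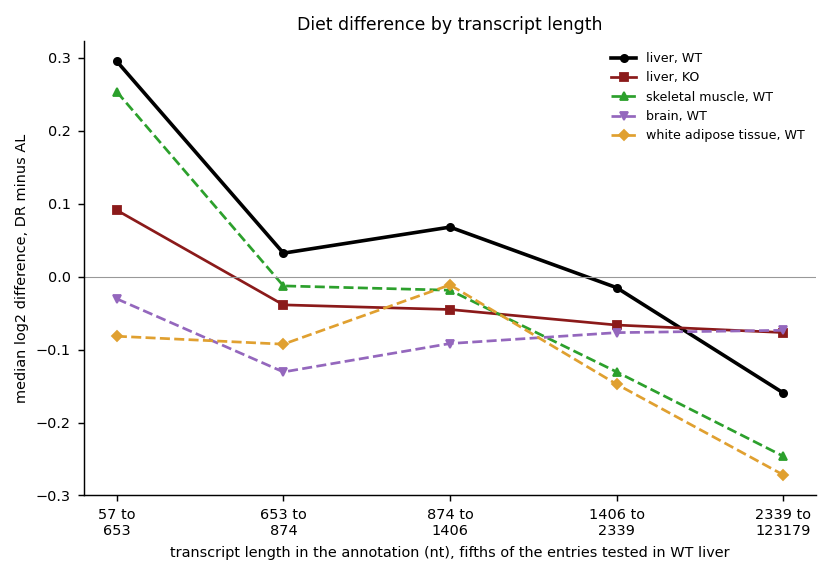
Median log2(DR/AL) within 5 classes of transcript length (x axis, shortest to longest), with ribosomal protein genes left out, for the WT and KO liver contrasts and for the other WT tissues. In WT liver the median goes from 0.295 in the shortest class to -0.159 in the longest.

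Enzymes of sterol synthesis were higher in DR. Of 24 entries, 21 were above 0 with a median log2 difference of 0.74, and 5 rose and 0 fell with the smaller error, against 1.37% of all entries higher and 1.49% lower. None passed with the full interval. Fdps, which makes farnesyl diphosphate, stood at 10.2 FPKM (2.90 to 17.4) in WT AL and 61.1 (6.94 to 115) in WT DR, a log2 difference of 2.59 ± 0.82 that passed with the smaller error. Nsdhl went from 10.1 to 29.1 FPKM, Cyp51 from 14.1 to 39.3 and Idi1 from 8.07 to 21.5, all enzymes on the path to cholesterol. In the KO contrast 23 of 24 entries were above 0, with a median of 1.11, and 17 rose with the smaller error, against 1.91% of all KO entries higher.

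Genes of fatty acid and triglyceride synthesis did not move as a group, with 14 of 21 above 0 and a median of 0.18; 2 rose and 1 fell with the smaller error, against 1.37% of all entries higher and 1.49% lower. Scd1, which desaturates stearic acid, stood at 239 FPKM (62.5 to 415) in WT AL and 749 (137 to 1361) in WT DR. Thrsp, a lipogenic protein, went from 57.8 (20.6 to 95) to 189 (9.98 to 369) FPKM. Lpin1, a phosphatidate phosphatase of triglyceride synthesis and a transcriptional coactivator, went the other way, from 29.6 (5.45 to 53.8) to 8.94 (5.62 to 12.3) FPKM, and fell by 1.73 ± 0.65 with the smaller error. Lpin1 stood at 41.9 and 48.9 FPKM in the KO groups, and the WT and KO differences differed with the smaller error and not with the full one.

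Lipid droplet genes had a median of -0.29 over 24 entries, 7 of them above 0. Mogat1, a monoacylglycerol acyltransferase, stood at 11.9 FPKM (0 to 25.7) in WT AL and 0.820 (0 to 2.31) in WT DR. Cidec, a protein of lipid droplet growth, went from 11.2 (3.07 to 19.2) to 2.37 (0 to 5.29) FPKM. Both fell with the smaller error, and Lpl, the lipoprotein lipase, rose from 2.96 to 8.52 FPKM with it. These calls and those of the next lists stand beside 1.37% of all entries higher and 1.49% lower. Apoa4, an apolipoprotein induced by lipid in the liver, fell from 1701 FPKM (0 to 3568) to 322 (84.8 to 559) with the smaller error, while the list of apolipoproteins had a median of 0.32. Fatty acid oxidation genes had a median of -0.23, with 15 of 35 above 0; the member called was Vnn1, a pantetheinase, which fell from 112 to 47.7 FPKM with the smaller error. Gluconeogenic and glycolytic genes had a median of -0.09, with Pck1 at 2205 FPKM (0 to 4536) and 1270 (247 to 2292) and G6pc at 200 and 108, neither called. The member called was the glycolytic enzyme Aldoc, which rose from 2.65 FPKM (0 to 6.06) to 13.0 (1.13 to 24.8) with the smaller error.

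Cytochrome P450 genes of families 1 to 3, which oxidise drugs and steroids, moved in both directions. Of 42 tested, 31 were above 0 with a median of 0.73; 9 rose and 4 fell with the smaller error, against 1.37% of all entries higher and 1.49% lower, and none passed with the full interval. Cyp3a11, the main drug-metabolising member of its family, stood at 155 FPKM (37.7 to 272) in WT AL and 947 (85.7 to 1809) in WT DR, a log2 difference of 2.61 ± 0.85 that passed with the smaller error. Cyp2c44 went from 72.8 (24.2 to 122) to 302 (135 to 469) FPKM and Cyp2c54 from 33.8 (9.09 to 58.6) to 148 (69.5 to 227), and neither pair of intervals overlaps. Other Cyp2c genes went the same way, Cyp2c67 from 56.1 to 156 FPKM, Cyp2c70 from 59.7 to 174 and Cyp2c68 from 121.6 to 311. Cyp2c55, at 0.255 FPKM (0 to 0.786) and 2.97 (0.291 to 5.66), had the largest log2 difference of the list, 3.54 ± 1.63, at a level close to 0 in WT AL. The 4 that fell were all female-biased members of the Cyp3a cluster. Cyp3a16 went from 76.0 (32.1 to 120) to 27.9 (13.8 to 41.9) FPKM, Cyp3a44 from 91.9 to 34.8 and Cyp3a41a from 505 to 185. Cyp3a41b is a near-identical copy of Cyp3a41a with which it shares reads, so the split between them is uncertain. Cyp3a16, Cyp3a44 and Cyp3a41a fell in the KO contrast as well with the smaller error, to 17.3, 23.0 and 148 FPKM.

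Neighbouring Cyp3a genes thus lay on opposite sides of 0. The 150 bases before the RefSeq start of 3 of them (GRCm38.p6) are shown, with CAAAGTCCA, letters that the nuclear receptor Hnf4a can bind, in capitals:
Cyp3a11 (chr5:145879855-145880004, minus strand): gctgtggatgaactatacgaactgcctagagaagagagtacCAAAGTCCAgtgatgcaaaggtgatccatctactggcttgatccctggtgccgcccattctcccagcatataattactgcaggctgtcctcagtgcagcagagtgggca
Cyp3a16 (chr5:145469724-145469873, minus strand): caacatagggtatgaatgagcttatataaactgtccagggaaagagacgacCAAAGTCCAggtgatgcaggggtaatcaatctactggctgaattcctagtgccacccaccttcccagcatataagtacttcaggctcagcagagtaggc
Cyp3a41a (chr5:145720137-145720286, minus strand): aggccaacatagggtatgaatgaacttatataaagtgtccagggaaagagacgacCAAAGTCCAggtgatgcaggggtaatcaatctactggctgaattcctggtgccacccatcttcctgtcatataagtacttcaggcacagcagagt
All 3 hold these letters, as do 9 of 36 P450 promoters in the table and 0.381% of all promoters (either strand). Over 250 bases the Cyp3a16 and Cyp3a41a promoters are 91.3% identical, while Cyp3a11 is 76.6% identical to Cyp3a16 and 72.9% to Cyp3a41a. The letters are therefore shared by the member that rose and the members that fell.

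Cyp17a1, a steroid hydroxylase, fell from 172 FPKM (49.5 to 295) to 31.9 (8.18 to 55.6), a log2 difference of -2.44 ± 0.74 that passed with the smaller error. In the KO groups it stood at 181 and 69.3 FPKM and fell with the smaller error too. Among other phase I and II enzymes 4 rose and 1 fell of 39 with the smaller error, against 1.37% and 1.49% of all entries. The carboxylesterase Ces1b rose from 30.1 to 88.1 FPKM. The sulphotransferase Sult2a3 fell from 84.0 (30.1 to 138) to 21.2 (6.17 to 36.3) FPKM, while Sult3a1 rose from 9.54 (1.70 to 17.4) to 35.4 (18.7 to 52.1), all with the smaller error.

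Among glutathione transferases and redox enzymes 26 of 34 were above 0 with a median of 0.44, and 5 rose and 0 fell with the smaller error, against 1.37% of all entries higher and 1.49% lower. Gstp1 stood at 120 FPKM (53.5 to 186) in WT AL and 331 (139 to 523) in WT DR, and its neighbour Gstp2 at 46.5 (18.4 to 74.7) and 136 (61.9 to 210). Gsta4, which conjugates the lipid peroxidation product 4-hydroxynonenal, went from 39.5 to 109 FPKM, and Gstm6 from 18.5 to 47.7. In the KO contrast the list's median was 0.15.

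Sex-biased genes were read from both sides, all mice being female. Of 27 genes known as higher in female liver, 13 were above 0, with a median of -0.10; 2 rose and 5 fell with the smaller error, against 1.37% of all entries higher and 1.49% lower. Of 20 genes known as higher in male liver, 13 were above 0 with a median of 0.75; 5 rose and 1 fell with the smaller error, against the same shares of 1.37% and 1.49%. The male-biased members that rose were Gstp1, Gstp2, Mup21, Serpina1e (399 to 1220 FPKM) and Bcl6, a repressor of female-biased genes, which went from 1.64 FPKM (0.0231 to 3.27) to 5.8 (2.63 to 8.97). Elovl3, a fatty acid elongase, fell from 6.21 to 2.43 FPKM. In the KO contrast the male-biased list had a median of -0.19, with Bcl6 at 8.11 and 6.53 FPKM.

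Major urinary proteins, carriers of pheromones made by the liver, were lower in DR in 16 of 21 entries, with a median of -0.77; 1 rose and 5 fell with the smaller error, against 1.37% of all entries higher and 1.49% lower. Mup17 fell from 368 FPKM (152 to 583) to 115 (40.0 to 191), and Mup21 rose from 33.1 (8.06 to 58.1) to 101 (51.4 to 151). In the KO contrast 19 of 21 were below 0 with a median of -1.35, and 16 fell with the smaller error, against 2.9% of all KO entries lower. These genes are near-identical copies, and how reads were split among them is uncertain.

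**Figure D4:**
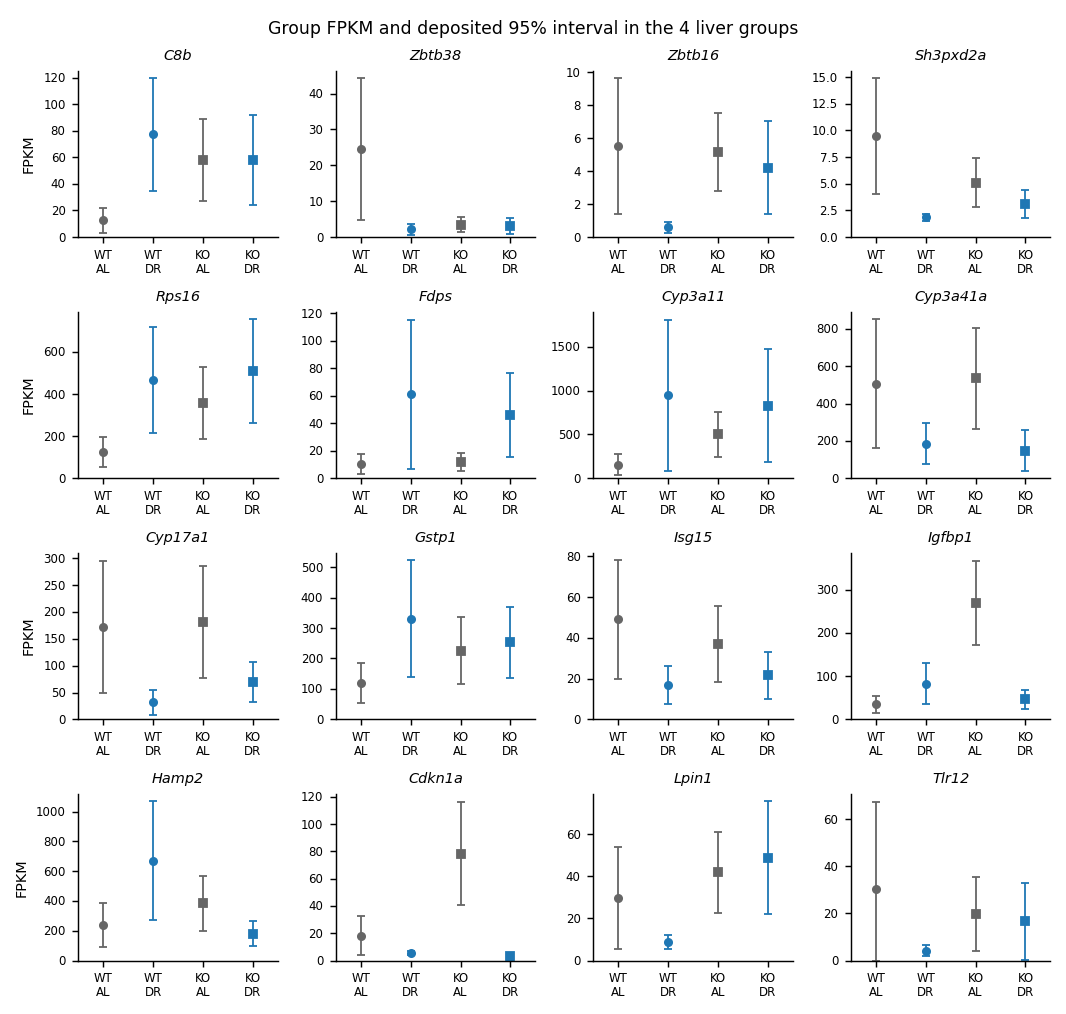
FPKM with its 95% interval in the AL and DR livers of WT and then KO mice for 16 genes described in the text, on a linear axis from 0 with 1 panel per gene; bars are the deposited intervals, and each value is that of a group, not of a library. C8b stands at 12.5 FPKM in WT AL and between 57.8 and 77.2 in the other 3 groups.

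Secreted plasma proteins of the acute phase and complement had a median of 0.31, with 23 of 35 above 0; 4 rose and 0 fell with the smaller error, against 1.37% of all entries higher and 1.49% lower, and C8b rose also with the full interval. C8a, the alpha subunit of the same component, which lies beside C8b, went from 16.7 FPKM (1.92 to 31.5) to 66.7 (0 to 139). Mug2, a murinoglobulin that traps proteases, went from 18 (5.49 to 30.4) to 77.5 (26.8 to 128) FPKM and Apcs, the serum amyloid P component, from 93.1 to 238. In the KO contrast the median was -0.28. C8b itself stood at 57.8 and 57.9 FPKM in the KO groups, and the difference of the 2 diet differences passed with the smaller error and not with the full one.

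The iron hormone hepcidin, encoded by Hamp, stood at 3556 FPKM (1196 to 5916) in WT AL and 11090 (1509 to 20672) in WT DR, and its paralogue Hamp2 at 239 (90.9 to 387) and 671 (274 to 1068). Both rose with the smaller error. In the KO groups Hamp stood at 3658 and 2204 FPKM and Hamp2 at 385 and 181, and the difference between genotypes passed for both with the smaller error.

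In the insulin, growth hormone and IGF list 11 of 26 were above 0 with a median of -0.12, and 2 rose with the smaller error, against 1.37% of all entries. These were the IGF binding proteins Igfbp1 and Igfbp2. Igfbp1, which the liver makes when insulin is low, stood at 34.9 FPKM (15.0 to 54.8) in WT AL, 82.5 (34.9 to 130) in WT DR, 270 in KO AL and 46.5 in KO DR. The WT difference was 1.24 ± 0.59 and the KO difference -2.54, and they differed by 3.78, which passed with the full interval. Igfbp2 went from 462 (175 to 750) to 1133 (332 to 1934) FPKM. Igf1 stood at 229 FPKM (0 to 462) and 696 (126 to 1266), and did not pass with either error.

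Innate receptors and interferon response genes were lower in WT DR than in WT AL, 29 of 33 below 0 with a median of -0.44; 0 rose and 5 fell with the smaller error, against 1.49% of all entries lower. Tlr12, an endosomal receptor, fell from 30.2 FPKM (0 to 67.3) to 4.17 (1.84 to 6.5), Rsad2 (viperin) from 6.61 (2.41 to 10.8) to 1.90 (0.737 to 3.07) and Isg15, a ubiquitin-like modifier, from 49.0 (19.9 to 78.2) to 16.9 (7.4 to 26.4). Ifit1 and Oasl1 fell from 12.0 to 4.71 and from 25.3 to 8.28 FPKM. In the KO contrast 29 of 31 were below 0 with a median of -0.74, and 9 fell with the smaller error (2.9% of all KO entries fell), among them Rsad2, Ifit1, Ifit3 and Oasl1. Ifit3 was not among the 5 members that fell in the WT contrast. The 150 bases before the RefSeq start of 4 members (GRCm38.p6) are shown with the core of the interferon-stimulated response element, TTTCNNTTT on either strand, in capitals:
Rsad2 (chr12:26456453-26456602, minus strand): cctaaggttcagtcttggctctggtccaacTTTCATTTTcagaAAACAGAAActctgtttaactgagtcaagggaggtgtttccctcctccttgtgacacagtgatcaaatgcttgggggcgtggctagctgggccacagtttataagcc
Isg15 (chr4:156200819-156200968, minus strand): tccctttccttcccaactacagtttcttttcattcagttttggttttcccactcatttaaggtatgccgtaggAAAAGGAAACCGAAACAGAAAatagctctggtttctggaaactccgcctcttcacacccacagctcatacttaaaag
Ifit1 (chr19:34640739-34640888, plus strand): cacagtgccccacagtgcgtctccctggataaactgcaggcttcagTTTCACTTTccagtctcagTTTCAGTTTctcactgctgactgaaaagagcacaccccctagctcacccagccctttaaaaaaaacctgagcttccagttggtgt
Ifit3 (chr19:34583379-34583528, plus strand): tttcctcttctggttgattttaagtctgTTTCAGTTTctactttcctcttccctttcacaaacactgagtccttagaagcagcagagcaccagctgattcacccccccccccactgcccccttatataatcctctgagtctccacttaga
The pattern occurred in 17 of 27 members with a promoter in the table and in 9.52% of all promoters. In Isg15 the 3 matches overlap and form the unbroken run of capitals.

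Markers of immune cells were read beside these genes. Of 18 Kupffer cell and macrophage markers 2 were above 0, with a median of -0.64, and their summed level was 672 FPKM in WT AL and 391 in WT DR, 751 in KO AL and 430 in KO DR. Cd5l stood at 93.6 (34.4 to 153) and 45.9 (22.5 to 69.4) FPKM and the Kupffer lectin Clec4f at 45.0 and 31.2, and no marker of the list passed with either error. MHC class II genes had a median of -0.35 over 8 entries and neutrophil markers one of -0.77 over 5, all 5 below 0. Among T, NK and B cell markers Ighm, the heavy chain of immunoglobulin M, fell from 80.3 FPKM (20.4 to 140) to 21.4 (10.3 to 32.6) with the smaller error, while the list's median was 0.09 over 8 entries. With that error 1.49% of all entries fell. Stellate cell markers had a median of 0.07 and endothelial markers one of -0.14. The part of these cells in the interferon list was not tested.

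Among p53 targets, Cdkn1a, the cell cycle inhibitor p21, stood at 18.3 FPKM (4.07 to 32.5) in WT AL, 5.54 (4.14 to 6.93) in WT DR, 78.3 in KO AL and 3.02 in KO DR. It fell by 1.72 ± 0.59 in WT with the smaller error and by 4.69 in KO, and the difference between genotypes passed with the smaller error. Gadd45g fell from 23.3 to 8.45 FPKM. The whole list had 4 of 15 above 0 and a median of -0.10. With the smaller error 0 of them rose and 2 fell, against 1.37% of all entries higher and 1.49% lower. Heat shock chaperones had 4 of 14 above 0, a median of -0.56 and 0 calls. Clock genes had a median of -0.11 in WT with 0 calls and one of 0.86 in KO. The clock output gene Dbp stood at 74.7 FPKM (0 to 181) and 147 (0 to 361) in WT and at 15.7 and 263 in KO. Arntl, a core clock activator, stood at 2.00 and 1.82 FPKM in WT and at 2.94 and 0.251 in KO, a difference between genotypes that passed with the smaller error. Amino acid catabolism and urea cycle genes had 24 of 31 above 0, a median of 0.30 and 0 calls, and bile acid genes 17 of 23, a median of 0.32 and 0 calls.

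In further lists the calls with the smaller error stand beside 1.37% of all entries higher and 1.49% lower. Genes of the unfolded protein and integrated stress response had a median of 0.18 over 22 entries, and Ppib, a proline isomerase of the endoplasmic reticulum, rose from 100.3 to 227 FPKM with the smaller error. In autophagy and lysosome genes the median was -0.05 over 21 entries, and Atp6v0d2, a subunit of the proton pump, rose from 2.13 FPKM (0.0468 to 4.22) to 9.87 (4.62 to 15.1) with the smaller error. Periportal hepatocyte genes had a median of 0.20 over 18 entries and pericentral ones 0.03 over 15, with 1 and 0 calls. Metallothioneins, which bind zinc and are induced by glucocorticoids, stood at 624.5 and 347 FPKM for Mt1 and at 575 and 242 for Mt2, and neither passed. The 6 sirtuins of the list, deacylases that depend on NAD, had a median of -0.21 with 2 above 0 and 0 calls. Sirt1 stood at 3.19 and 3.81 FPKM and Sirt3 at 83.4 and 79.2. Methionine cycle genes had a median of 0.03 over 17 entries, immediate early genes one of 0.10 over 14, proliferation genes one of 0.49 over 7 and snoRNAs one of -0.11 over 12. Red blood cell genes were above 0 in 5 of 5 entries with a median of 0.43 and 0 calls. Cholangiocyte, adipocyte, skeletal muscle and pancreatic acinar markers had 3, 3, 3 and 1 entries tested, with 0 calls.

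The same diet contrast in the KO groups called 84 of 13747 entries (0.611%), and 660 with the smaller error (4.8%). Of the 32 WT calls, 29 were tested in KO and 17 of them (58.6%) had the same sign, near the 61.2% of all 13011 entries tested in both. Of the 387 smaller-error calls, 284 of 360 (78.9%) had the same sign, and 80 were also called in KO in the same direction and 14 in the other. Their median size was 1.56 in WT, and the median KO difference in the WT direction was 0.38. The difference between the WT and KO contrasts passed for 13 entries (0.0999%), or 118 with the smaller error (0.907%). Of the 13, the single protein-coding genes were Igfbp1 and Sik1. Sik1, a kinase induced by cyclic AMP, stood at 9.08 FPKM in WT AL, 3.89 in WT DR, 2.90 in KO AL and 7.59 in KO DR. The 2 diet differences of Sik1 differed by -2.61, which passed with the full interval. For Zbtb38 the KO groups stood at 3.48 and 3.04 FPKM and for Sh3pxd2a at 5.09 and 3.09, so the high value of Zbtb38 was that of WT AL.

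**Figure D5:**
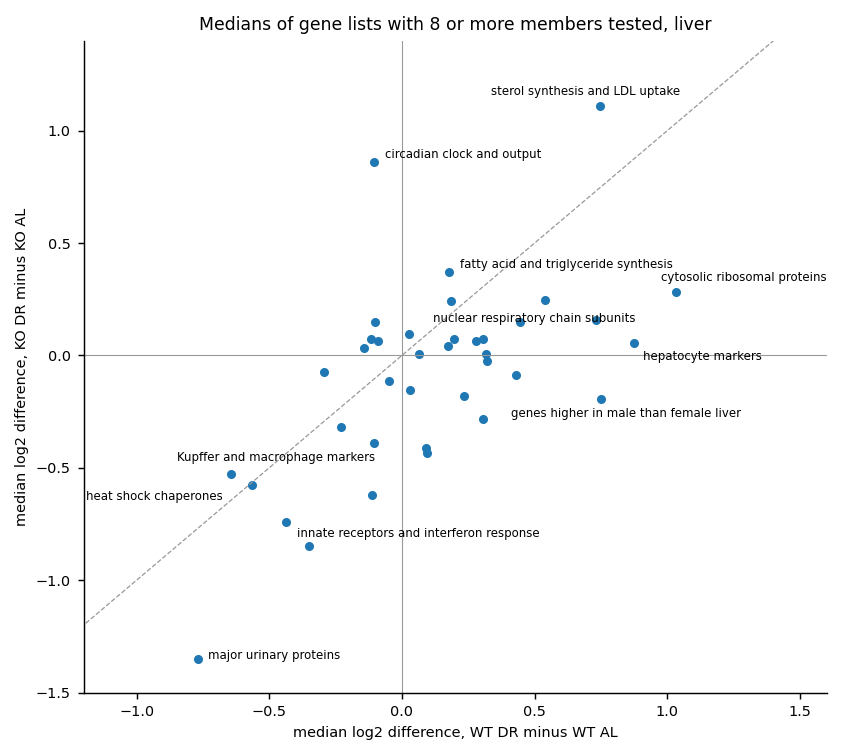
Median log2(DR/AL) of each gene list in WT liver (x axis) against that in KO liver (y axis), with 1 point per list of 8 or more tested members and a dashed line of equal values. Sterol synthesis lies at 0.74 and 1.11, innate receptors and interferon response at -0.44 and -0.74, and cytosolic ribosomal proteins at 1.03 and 0.28.

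Between tissues, the liver difference differed from that of skeletal muscle for 30 entries of 12033 (0.249%), from brain for 7 (0.0604%) and from white adipose tissue for 8 (0.0646%). Sh3pxd2a and Hist1h4i differed both from muscle and from white adipose tissue. The diet difference of Hist1h4i had an SE of 0.0094 in muscle and 0.018 in white adipose tissue. Over all entries in liver the median SE was 0.81. Intervals this narrow make the tissue differences of Hist1h4i uncertain. The summed hepatocyte markers stood at 15.2 FPKM in WT AL muscle and 2300 in WT DR muscle, and their part in the comparison with muscle was not tested. Of the smaller-error liver calls 67.4% had the same sign in muscle, 72.3% in brain and 61.3% in white adipose tissue, against 54.2%, 61.6% and 52.8% of all entries. The median of cytosolic ribosomal proteins was 0.48 in muscle, 0.04 in brain and 0.20 in white adipose tissue, beside 1.03 in liver. That of sterol synthesis was 0.05, -0.04 and 1.38, beside 0.74, and that of the interferon list -0.27, -0.51 and -0.24, beside -0.44. These medians were not tested against each other.

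Of the 325 members listed at 0 in 1 group, 262 were at 0 in WT AL and 63 in WT DR. Of these, 78 and 15 span less than 300 bp, against 1.4% of the entries tested. Single protein-coding genes were 7 of the 325, against 9937 of the 13539 entries tested. Cib3, a calcium-binding protein, Ppp1r42, Wfdc15b and Gm1673 were at 0 in WT AL, Cib3 with 5.81 FPKM in WT DR. Gpha2, a glycoprotein hormone subunit, Gm13276 and Gm17655 were at 0 in WT DR. No fold is given for these entries.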

How the data were processed

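Poly(A)-selected liver RNA was sequenced on an Ion Proton. Per the study's methods, the authors trimmed reads with cutadapt 1.5 and sickle, aligned them with BBmap to GRCm38 and quantified genes with Cuffdiff 2.2.1 with geometric normalization, which pooled the libraries of each group. The deposited values used are the authors' FPKM per group with their 95% interval. From these, SD was taken as upper bound minus FPKM, divided by 2, the log2 ratio received its SE by the delta method, and a two-sided Wald test with a normal reference and Benjamini-Hochberg adjustment was run over all tested entries at an FDR of 10%. P-values thus rest on the authors' intervals. No values per library were used, so the spread between libraries could not be measured. The test was tested on simulated data. Differences between contrasts were tested with the SE of 4 intervals. Alternatives were the smaller error, a t reference, other FPKM minimums, pseudocounts of 0.1 and 1 FPKM, an FDR of 5%, a minimum fold of 2, centring and intervals that do not overlap. In the table, 18 columns of group values were not used.

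The members and the 47 gene lists were chosen with earlier results of these data known. All calls and the entries called in the genotype difference are named. Other genes were taken from up to 4 members of each list with the smallest p, the 2 most abundant members and the 20 further entries with the smallest p, and not all of these are printed. Idi1, Rps6, Rps24, Rpl38, Rpl14, Clec4f, Arntl, Ifit3, Oasl1, Bcl6, Elovl3, Sirt1, Cyp3a44, Cyp3a41a, Cyp3a41b, Cyp2c55, Cyp2c67, Cyp2c68 and Cyp2c70 lie outside this rule and were chosen after their values were seen. Gene types and transcript lengths came from a GENCODE annotation of GRCm38, matched by symbol, and promoter and miRNA sequences from RefSeq (GRCm38.p6). Some entries of the lists are not reported here by name. All steps were run with Python 3.11.15, pandas 2.3.3, scipy 1.17.1 and statsmodels 0.14.6.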

Additional observations from a re-analysis of the deposited data

Results flagged for a closer look

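The difference between the diet contrasts of WT and KO liver (WT minus KO, log2) passed the FDR of 10% for 13 entries. It was 3.78 for Igfbp1 and -2.61 for Sik1, the 2 single protein-coding genes. Among small RNAs and joined entries it was 4.19 for Snord82, 5.41 for n-R5s193, 1.45 for n-R5s194, 1.69 for mt-Th, -3.45 for Gm25313, -7.74 for Gm25360, -2.80 for Gm22235, -2.61 for Gm25541, -2.50 for the pseudogene Mup-ps5, -2.19 for the joined entry of Gm24067 and Ppan and -6.04 for that of Mir8098 and Wdfy2. Of the 32 WT liver calls, 6 differed from the WT muscle contrast, by -3.99 for Hist1h4i, -2.10 for Sh3pxd2a, -5.89 for Mir8098 with Wdfy2, 2.83 for Hipk3 with Mir1902, 4.58 for RP23-396I19.1 and 4.38 for mt-Tl2 with mt-Ts2. From the brain contrast 6 differed, by 2.44 for Snord82, -6.22 for Mir8098 with Wdfy2, -5.11 for n-R5-8s1, -5.46 for Gm24601, -3.21 for Gm24067 with Ppan and -3.37 for mt-Tf. From white adipose tissue 3 differed, by -2.81 for Hist1h4i, -7.51 for n-R5-8s1 and -1.96 for Sh3pxd2a. The differences of Hist1h4i are uncertain because its intervals in muscle and white adipose tissue are unusually narrow. Libraries of different tissues may come from the same mice.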

How the results depend on the processing

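The 32 calls between WT DR and WT AL liver became 387 with the smaller error, 65 when only intervals that do not overlap were counted and 12 when entries shorter than 300 bp, an alternative chosen after seeing the data, were left out. With a t distribution of 3 degrees of freedom the count was 0, beside 394 entries (2.91%) at an unadjusted p under 0.05. With the smaller error the KO contrast gave 660 calls and the difference between genotypes 118. The difference between liver and muscle gave 319 with the smaller error, 18 at an FDR of 5% and 55 with a pseudocount of 1 FPKM, beside 30. The median of T, NK and B cell markers went from 0.09 to -1.43 with an FPKM minimum of 5, where fewer entries remain. Centring on the median turned the WT difference of mt-Th to -0.026. No paired analysis was possible because the columns hold group values and carry no replicate numbers, and for the same reason no library could be left out. Depth is unknown, and entries with wide intervals, such as Alb, cannot show differences of this size.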

Other observations

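Outside the lists, several protein-coding genes had small unadjusted p in WT liver and passed with the smaller error, not with the full interval. Utp14a, a factor of ribosomal RNA processing, rose from 2.36 to 11.3 FPKM. The genes that fell were Inhbe, which encodes the hepatokine activin E subunit and went from 144 to 43.0 FPKM, the kinase Pim1 from 12.6 to 3.32, the imprinted gene Peg3 from 3.42 to 0.723, the homeobox gene Irx1 from 4.84 to 0.723 and Pdp2, a phosphatase that activates pyruvate dehydrogenase, from 13.9 to 5.26. The processed pseudogene Rpl19-ps4 stood at 26.5 FPKM (17.7 to 35.3) in WT AL and 687 (0 to 1948) in WT DR, a value that shares reads with its parent gene and is uncertain.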
